A study of Mus musculus with 5 samples.

Results

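The genes described here are the cytokine receptors that signal through gp130 together with STAT3 and its regulators, 10 genes out of 57186 annotated in the deposited tables. They were taken by exact gene name: the receptor chains Il6ra, Il6st, Il27ra, Lifr, Osmr and Il11ra1, the cytokine subunit gene Ebi3, the transcription factor gene Stat3, and the inhibitor genes Socs3 and Pias3. Their RNA was measured in follicular regulatory T (Tfr) cells, CD4 T cells that control germinal centre reactions, in 2 Cebpa_KO and 3 WT libraries. Cebpa_KO mice were Foxp3-Cre Cebpa-flox/flox, so that Cre made under the control of Foxp3 removes the gene of C/EBP alpha in cells that express Foxp3. WT mice were Foxp3-GFP reporter animals. The mice of both groups had been given imiquimod, a TLR7 agonist, and spleen cells were sorted at 21 days as live CD4+Foxp3+CXCR5+PD-1+ICOS+ cells. Cells of several mice were pooled for each library, and neither the age nor the sex of the mice is in the labels. The title of the series names IL-6 as an inducer of C/EBP alpha, which makes the receptor and relay of IL-6 a part of the question.

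IL-6 binds its receptor alpha chain, encoded by Il6ra, and the complex then engages gp130, the signalling chain encoded by Il6st. JAK kinases bound to gp130 phosphorylate STAT3, which moves to the nucleus and activates genes, among them that of its own feedback inhibitor SOCS3. IL-27, IL-11, leukaemia inhibitory factor and oncostatin M reach gp130 through other partner chains, and in T cells IL-6 is known for favouring follicular helper and Th17 cells over induced regulatory T cells.

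Aligned depth was 6.76 to 6.80 gigabases in Cebpa_KO and 6.77 to 7.08 gigabases in WT libraries. Levels are TPM, a transcript's share of the library after correction for its length, divided by a scaling factor of 0.984 to 1.04 per library. Cebpa stood at 0.317 and 0.550 in Cebpa_KO and at 12.9, 17.7 and 12.8 in WT. Cd4, Cd3e, Cxcr5, Pdcd1 and Icos were abundant in every library, but Foxp3, by which the cells were sorted, stood at 6.74 and 5.58 in Cebpa_KO and at 83.0, 107 and 105 in WT. In all 6 of 8 T cell and Tfr markers fell by the test described below, 75.0% called against 19.7% of all tested genes. Y-linked genes summed to 0 and 0.0311 in Cebpa_KO and to between 151 and 162 in WT, so the effects of genotype, of the Foxp3 allele and of the sex of the mice cannot be told apart. WT replicate 3 stood apart from the other WT libraries. Its plasma cell markers summed to 9617, against 1340 and 783 in WT replicates 1 and 2, and to 4912 and 1844 in Cebpa_KO. Red cell markers summed to 710 in WT replicate 3, 90.1 and 61.0 in WT replicates 1 and 2, and 2137 and 235 in Cebpa_KO. The 12 stress and immediate early genes summed to 6268 and 6709 in Cebpa_KO, and to 5663 in WT replicate 3 but 1252 and 1350 in WT replicates 1 and 2.

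Tests used limma on log2(scaled TPM + 1) over the 16254 genes that reached a TPM of 1 in 2 or more libraries, with Benjamini-Hochberg adjusted p under 0.05 as the threshold. Of the 10 members 8 passed this filter, all but Lifr and Osmr. Il6ra, Il6st and Il27ra fell in Cebpa_KO, Socs3 rose, and the other 4 did not pass. Over all tested genes 9.82% fell and 9.93% rose, 19.7% in all, so many genes outside this family changed too. The median log2 fold change of the 8 members was -0.06, beside 0.01 over all tested genes. All 4 calls rested on both Cebpa_KO libraries. With either left out, that group had 1 library and no spread of its own, so the fit cannot say whether a call holds. Il6st kept its direction in all 16 alternative settings, with log2 fold changes from -1.45 to -1.18.

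**Figure D1:**
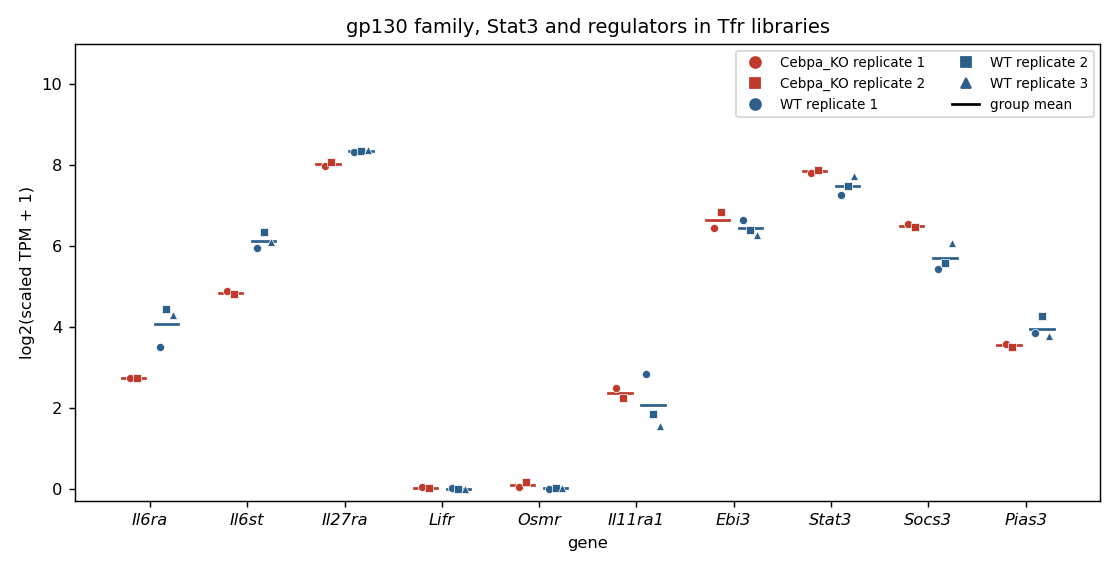
Level of each of the 10 genes in every library on the log2(scaled TPM + 1) scale, Cebpa_KO left in red and WT right in blue, with a bar at each group mean. Il6ra and Il6st lie lower in both Cebpa_KO libraries than in all WT libraries, Socs3 lies higher, and Lifr and Osmr lie close to 0 throughout.

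The binding chain of IL-6 and its signalling partner both fell in Cebpa_KO. Il6st (ENSMUSG00000021756, mm39 chromosome 13, 112600604 to 112646620) stood at 28.6 and 27.1 scaled TPM in Cebpa_KO and at 61.5, 80.0 and 67.9 in WT. The groups did not overlap, and the lowest WT library was well above either Cebpa_KO library. The mean was 27.8 ± 1.06 in Cebpa_KO and 69.8 ± 9.39 in WT (SD, n = 2 and n = 3), 2.51 times lower, a log2 fold change of -1.29 (standard error 0.13, adjusted p = 0.00716 by limma). In bulk RNA, fewer cells that carry a transcript and less of it per cell cannot be told apart.

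Il6ra (ENSMUSG00000027947, chromosome 3, 89771366 to 89820503) stood at 5.62 and 5.63 in Cebpa_KO and at 10.37, 20.6 and 18.8 in WT. The Cebpa_KO libraries were nearly equal, while WT replicate 1 was well below the other WT libraries, and the groups did not overlap. On the log2 scale it fell by 1.35 (standard error 0.30, adjusted p = 0.0344 by limma). The call ended without WT replicate 2 (adjusted p = 0.0920) or WT replicate 3 (0.0539), without either Cebpa_KO library, and with no filter on low values (0.131). In the loci that were assembled from each library's own reads, Il6ra stood at 14.1 and 9.75 TPM in Cebpa_KO and at 22.3, 21.6 and 20.5 TPM in WT. There the WT libraries were close to each other, and the log2 fold change was smaller, at -0.82 (limma, adjusted p = 0.0485).

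Markers of other cells and states were set beside these chains, since naive T cells and myeloid cells are known to carry IL-6 receptor. The 12 naive and resting T cell genes summed to 1408 and 1264 in Cebpa_KO and to 2298, 2296 and 1865 in WT. Of these 5 fell, S1pr1, Foxo1, Rgs10 and Dapl1 among them, none rose, and 7 did not pass. The share called was 41.7%, against 19.7% of all tested genes. The sum of the naive and resting list moved in the same direction as Il6ra and Il6st. Within the list, Tcf7, Il7r and Satb1 had log2 differences of 0.0064, -0.019 and -0.023. The part of this list in the fall of Il6ra and Il6st was not tested. The 10 myeloid and neutrophil genes summed to 362 and 77.7 in Cebpa_KO and to 74.8, 42.2 and 146 in WT, and none of the 7 tested passed. Within the list Mpo and Elane were higher in both Cebpa_KO libraries than in any WT library, while Itgam stood at 1.41 and 0.604 in Cebpa_KO and at 1.87, 1.69 and 1.71 in WT. The part of myeloid RNA in the fall of Il6ra was not tested.

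The 250 bases before the RefSeq start site of Il6ra and Il6st are shown because both genes fell. They are from build GRCm38.p6 and are given 5′ to 3′ on the gene's strand, and capitals would mark a match to a C/EBP-type motif, TTGCNNAA, or a STAT-type motif, TTCNNNGAA, on either strand.
Il6ra, chr3:89913197-89913446, minus strand: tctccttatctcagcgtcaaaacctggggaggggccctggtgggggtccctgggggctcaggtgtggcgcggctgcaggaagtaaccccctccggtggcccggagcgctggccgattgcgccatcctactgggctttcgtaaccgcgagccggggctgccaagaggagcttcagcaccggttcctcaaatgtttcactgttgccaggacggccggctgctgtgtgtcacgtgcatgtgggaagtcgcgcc
Il6st, chr13:112463820-112464069, plus strand: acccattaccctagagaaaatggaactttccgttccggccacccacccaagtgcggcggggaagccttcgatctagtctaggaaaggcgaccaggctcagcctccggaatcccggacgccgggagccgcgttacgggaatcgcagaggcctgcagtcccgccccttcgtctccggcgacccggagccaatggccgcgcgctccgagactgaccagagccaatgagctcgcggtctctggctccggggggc
Neither window held either motif. Of 32851 such windows of mouse genes 9.56% held the first and 7.02% the second. Windows were at hand for 9 of the 10 members, all but Il27ra, and none of the 12 windows held the C/EBP-type motif. These letters describe the windows alone.

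Il27ra, the chain that pairs with gp130 in the IL-27 receptor, was the most abundant transcript of the family. Il27ra (ENSMUSG00000005465, chromosome 8, 84756923 to 84769218) stood at 252 and 272 in Cebpa_KO and at 319.8, 327 and 333 in WT. The WT libraries differed little, with a coefficient of variation of 2.05%, and the groups did not overlap. The difference was small, a log2 fold change of -0.32 with a standard error of 0.07 and a 95% interval of -0.51 to -0.13 (limma, adjusted p = 0.0403). The call ended in 8 of 16 alternative settings, among them leaving out WT replicate 1 (adjusted p = 0.0679) or WT replicate 2 (0.105).

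The makeup of the receptor transcripts differed with these unequal falls. Over Il6ra, Il6st, Il27ra, Lifr, Osmr and Il11ra1 the scaled TPM summed to 291 and 308 in Cebpa_KO and to 398, 431 and 422 in WT. Il6st made up 9.82% and 8.78% of that sum in Cebpa_KO and 15.5%, 18.6% and 16.1% in WT. The ratio of Il27ra to Il6st was 8.83 and 10.04 in Cebpa_KO and 5.20, 4.09 and 4.90 in WT, so each gp130 transcript was matched by more Il27ra transcripts in both Cebpa_KO libraries. This ratio was chosen after its values were seen, and the exact two-sided permutation test of the 5 libraries gave p = 0.1, the smallest that 10 splits allow. The ratio of Il6ra to Il6st was 0.197 and 0.208 in Cebpa_KO and 0.169, 0.258 and 0.277 in WT. It overlapped between the groups (exact two-sided permutation test, p = 0.5), in a design that allows no p under 0.1. Its log2 difference of -0.18 became 0.19 with a pseudocount of 5. In the assembled loci the same ratio was 0.495 and 0.362 in Cebpa_KO and 0.325, 0.244 and 0.269 in WT, a log2 difference of 0.61. There the groups did not overlap and Cebpa_KO was higher, so the direction of this ratio depended on the rows used.

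**Figure D2:**
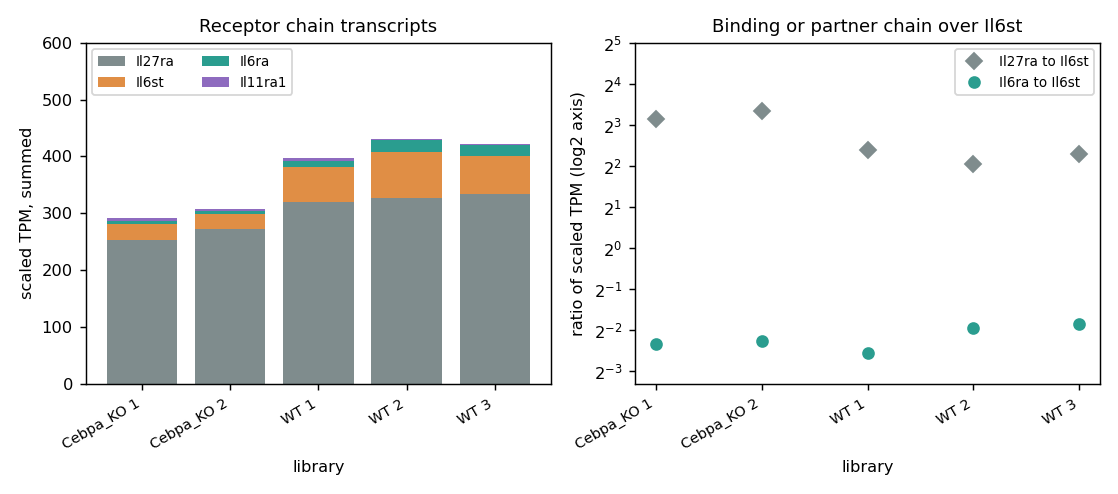
Left, scaled TPM of Il27ra, Il6st, Il6ra and Il11ra1 stacked for each library, with Lifr and Osmr too low to draw; right, the ratio of Il27ra and of Il6ra to Il6st for each library on a log2 axis, Cebpa_KO libraries left of WT. The Cebpa_KO bars are shorter, and the ratio of Il27ra to Il6st is above 8 in both, while the ratio of Il6ra to Il6st overlaps between the groups.

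Lifr and Osmr, the signalling chains for leukaemia inhibitory factor and oncostatin M, were near 0 in the annotated rows of every library. Lifr (ENSMUSG00000054263, chromosome 15, 7120095 to 7226970) stood at 0.0211 and 0.00714 in Cebpa_KO and at 0.00387, 0 and 0.00204 in WT. Osmr (ENSMUSG00000022146, chromosome 15, 6843058 to 6904450) stood at 0.0355 and 0.112 in Cebpa_KO and at 0.00142, 0.00524 and 0.0120 in WT. Both were left untested, and a fold at such levels has no use. In the assembled loci Osmr stood at 0.399 and 1.71 TPM in Cebpa_KO and was listed at 0 in all WT libraries, while Lifr stood at 0.560 TPM in Cebpa_KO replicate 1 and was listed at 0 in the others. Stromal and endothelial cells are known to carry these chains. Of 9 of their markers 8 stayed under a TPM of 1 in all libraries, all but Pecam1. The list summed to 26.4 and 22.8 in Cebpa_KO and to 48.3, 51.0 and 34.9 in WT. Nearly all of that sum was Pecam1, at 25.8 and 22.4 in Cebpa_KO and at 48.1, 50.4 and 34.7 in WT.

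Il11ra1, the binding chain for IL-11, was low and variable. Il11ra1 (ENSMUSG00000073889, chromosome 4, 41699989 to 41769474) stood at 4.61 and 3.71 in Cebpa_KO and at 6.08, 2.62 and 1.93 in WT, with WT libraries on both sides of the Cebpa_KO libraries. The log2 fold change of 0.28 had a 95% interval of -0.71 to 1.28 and did not pass (limma, adjusted p = 0.636). The value is uncertain, since the annotated span holds other genes on both strands, among them Galt on the same strand and Dctn3 on the other, and Il11ra2 is a near copy. In the assembled loci the difference turned to -2.80, where the matched loci of WT replicates 2 and 3 stood at 85.7 and 73.8 TPM.

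Ebi3 encodes the subunit that forms IL-27 with the product of Il27 and IL-35 with that of Il12a, and IL-35 is known as a product of regulatory T cells. Ebi3 (ENSMUSG00000003206, chromosome 17, 56259640 to 56264022) stood at 86.1 and 114 in Cebpa_KO and at 99.6, 83.6 and 76.4 in WT. The groups overlapped, and the log2 fold change of 0.20 did not pass (limma, adjusted p = 0.426, 95% interval -0.22 to 0.63). The partner Il27 was at 0.104 and 0.139 in Cebpa_KO, while no WT library exceeded 0.238. Il12a was at 4.71 and 1.18 in Cebpa_KO and at 0.498, 0.135 and 0.362 in WT, a log2 difference of 1.42 that did not pass (limma, adjusted p = 0.0712). Its higher Cebpa_KO library was also the one with more B cell marker RNA, which summed to 224 and 49.0 in Cebpa_KO and to 76.4, 66.0 and 113 in WT. The same library had more myeloid, plasma cell and red cell marker RNA than the other Cebpa_KO library. The part of other cells in Il12a was not tested.

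Among the cytokines that signal through gp130, Clcf1, which acts through the receptor of ciliary neurotrophic factor, fell. It stood at 7.31 and 5.89 in Cebpa_KO and at 13.2, 14.7 and 14.3 in WT, a log2 fold change of -0.99 (standard error 0.14, adjusted p = 0.0127 by limma). Lif, the gene of leukaemia inhibitory factor, stood at 11.04 and 11.7 in Cebpa_KO and at 5.20, 8.80 and 5.43 in WT. It was higher in both Cebpa_KO libraries than in any WT library, but its log2 difference of 0.76 did not pass (limma, adjusted p = 0.0761), except without WT replicate 2, at 0.97 (0.0462). Osm, at 13.5 and 16.1 in Cebpa_KO and 15.4, 16.6 and 18.1 in WT, did not pass, and Il6 itself reached no more than 0.440 in Cebpa_KO and 1.498 in WT. Of 11 cytokine genes 5 were tested, 1 fell and none rose, 20.0% called against 19.7% of all tested genes. Their median log2 fold change was -0.16. Of 8 other receptor chains 3 were tested, Il12rb1, Il12rb2 and Il23r, and none passed.

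Stat3, the transcription factor of the pathway, was not lower along with the receptor. Stat3 (ENSMUSG00000004040, chromosome 11, 100775924 to 100830366) stood at 224 and 237 in Cebpa_KO and at 154, 179 and 211 in WT. Both Cebpa_KO libraries were above all WT libraries, with WT replicate 3 nearest to them. The log2 difference of 0.36, with a standard error of 0.14 and a 95% interval of -0.0038 to 0.72, did not pass (limma, adjusted p = 0.136). Without WT replicate 3 it was 0.47 and passed (adjusted p = 0.0339). Stat3 shares 72 bases at its 3′ end with Stat5a on the other strand, and without a known strand setting the reads of that stretch cannot be assigned.

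Socs3, whose product binds gp130 and its kinases and shuts the signal off, rose. Socs3 (ENSMUSG00000053113, chromosome 11, 117856905 to 117860873) stood at 92.4 and 87.2 in Cebpa_KO and at 41.9, 47.3 and 66.2 in WT. The groups did not overlap, and WT replicate 3 was the closest WT library to Cebpa_KO. The mean was 89.8 ± 3.65 in Cebpa_KO and 51.8 ± 12.7 in WT (SD, n = 2 and n = 3), 1.73 times higher, a log2 fold change of 0.81 (standard error 0.20, adjusted p = 0.0459 by limma). Without WT replicate 3 the value was 0.99 (adjusted p = 0.00781), and against WT replicate 3 alone it was 0.43 and did not pass (0.0637). The call also ended without WT replicate 1 (0.0845) or WT replicate 2 (0.125), and with no filter on low values (0.159). The sum of the stress and immediate early genes, given above, was likewise high in Cebpa_KO and in WT replicate 3. Of these 12 genes 11 had a log2 difference above 0. Of the 12, 1 rose, Atf3, and none fell, 8.33% called against 19.7% of all tested genes. Atf3 stood at 0.746 in WT replicate 3, below both Cebpa_KO libraries. Egr1 was lower in both Cebpa_KO libraries than in any WT library, and highest in WT replicate 3. The part of this list in the rise of Socs3 was not tested.

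The window before the Socs3 start site is shown because Socs3 was the member that rose and is known as a target of STAT3. Its build, direction and motifs are those of the windows above, and the capitals mark a match to the STAT-type motif.
Socs3, chr11:117969367-117969616, minus strand: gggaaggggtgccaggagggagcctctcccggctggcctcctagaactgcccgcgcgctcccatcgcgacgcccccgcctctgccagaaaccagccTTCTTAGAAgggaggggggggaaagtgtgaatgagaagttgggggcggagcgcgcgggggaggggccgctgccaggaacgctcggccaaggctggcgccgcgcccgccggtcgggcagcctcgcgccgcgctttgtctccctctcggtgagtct
The match, TTCTTAGAA, begins 154 bases before this RefSeq start. The Socs3 span given above is of build mm39, and the window was not placed against it. The window may therefore lie inside that span. Socs3 was the 1 member of the 9 with a window that held this motif, which 7.02% of all windows held.

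Pias3, named for its inhibition of activated STAT3, stood at 10.9 and 10.3 in Cebpa_KO and at 13.5, 18.2 and 12.6 in WT. Pias3 (ENSMUSG00000028101, chromosome 3, 96603700 to 96613386) was lower in both Cebpa_KO libraries than in any WT library, yet its log2 difference of -0.42 did not pass (limma, adjusted p = 0.153). In all, 6 of the 8 tested members had groups that did not overlap, 2 above and 4 below, which 56.7% of all tested genes had as well, 28.7% above and 28.0% below.

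The order of levels differed between the groups. In Cebpa_KO it ran Il27ra, Stat3, Ebi3, Socs3, Il6st, Pias3, Il6ra, Il11ra1, Osmr and Lifr from high to low mean scaled TPM, and of these neighbours Ebi3 and Socs3 alone overlapped. In WT the order ran Il27ra, Stat3, Ebi3, Il6st, Socs3, Il6ra, Pias3, Il11ra1, Osmr and Lifr. The WT libraries of Ebi3 and Il6st, of Il6st and Socs3, of Il6ra and Pias3, and of Osmr and Lifr overlapped, so these neighbours were not apart. Socs3 was thus 3.23 times as high as Il6st in Cebpa_KO by their means and 0.742 times as high in WT.

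The wider pathway was read from lists of 73 genes other than the members. Of 57 tested 8 rose and 6 fell, 24.6% against 19.7% of all tested genes, and their median log2 fold change was 0.05. Cebpa, the gene deleted in Cebpa_KO, is among the 6 that fell, and this share includes it. Of 11 tested relay genes 1 rose and 1 fell, 18.2% called. Stat5a, a mediator of IL-2 signals, rose to 60.8 and 76.2 in Cebpa_KO, against 41.7, 37.4 and 45.3 in WT, a log2 fold change of 0.71 (adjusted p = 0.0262 by limma). Its neighbour Stat5b fell to 86.9 and 86.2 in Cebpa_KO, against 107, 136 and 127 in WT, a log2 fold change of -0.50 (adjusted p = 0.0429 by limma). Both calls were fragile and ended in 8 of 16 alternative settings each. Jak1, the kinase that gp130 chiefly relies on, stood at 276 and 279 in Cebpa_KO and at 314, 365 and 412 in WT. Its log2 difference of -0.38 did not pass (limma, adjusted p = 0.0930). It passed in 3 of 16 alternative settings, among them without WT replicate 1 (0.0497) and with array weights (0.0399).

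Of 11 inhibitor genes, all tested, 2 rose and none fell, 18.2% called against 19.7% of all tested genes. Socs1, a feedback inhibitor of JAK kinases, stood at 60.5 and 56.1 in Cebpa_KO and at 31.95, 31.94 and 34.3 in WT, a log2 fold change of 0.81 (limma, adjusted p = 0.00772). Ptpn1, the tyrosine phosphatase PTP1B, stood at 368 and 360.1 in Cebpa_KO and at 219, 209 and 184 in WT, a log2 fold change of 0.84 (limma, adjusted p = 0.00941). Both groups of libraries were tight and far apart for these genes. Cish, Socs2, Ptpn2, Ptpn6, Usp18, Ndufa13 and the other Pias genes did not pass. Adam17, the protease that sheds the IL-6 receptor from the cell surface, was the 1 of 4 tested shedding genes that fell (25.0%). It stood at 49.3 and 52.5 in Cebpa_KO and at 70.0, 78.6 and 71.5 in WT, a log2 fold change of -0.52 (limma, adjusted p = 0.0204). Without WT replicate 2 the adjusted p by limma was 0.0541 for Clcf1 and 0.0612 for Adam17. Calls over all genes also fell in that setting, to 437 higher and 390 lower of 15977 tested.

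Targets attributed to STAT3 in T cells went both ways. Of 23 tested 5 rose, Il21, Ahr, Myc, Bcl3 and Cebpd, and 3 fell, Cebpa, Hif1a and Bcl6, while 15 did not pass. The share called was 34.8%, against 19.7% of all tested genes, and the median log2 fold change was 0.22. Cebpa is the gene deleted in Cebpa_KO, so its fall is no readout of STAT3, and the share called includes it. Il21, a cytokine of follicular T cells, stood at 56.2 and 50.4 in Cebpa_KO, against 14.7, 10.43 and 12.9 in WT, a log2 fold change of 2.00 (limma, adjusted p = 0.00550). Hif1a, the oxygen-regulated transcription factor, stood at 340.4 and 336 in Cebpa_KO, against 488, 501 and 471 in WT, a log2 fold change of -0.52 (limma, adjusted p = 0.0126). Without WT replicate 2 the adjusted p by limma was 0.0528 for Hif1a and 0.0504 for Ahr, in a setting where fewer of all tested genes passed as well. With either Cebpa_KO library left out, that group had no spread of its own, so those fits cannot decide the calls of these pathway genes.

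**Figure D3:**
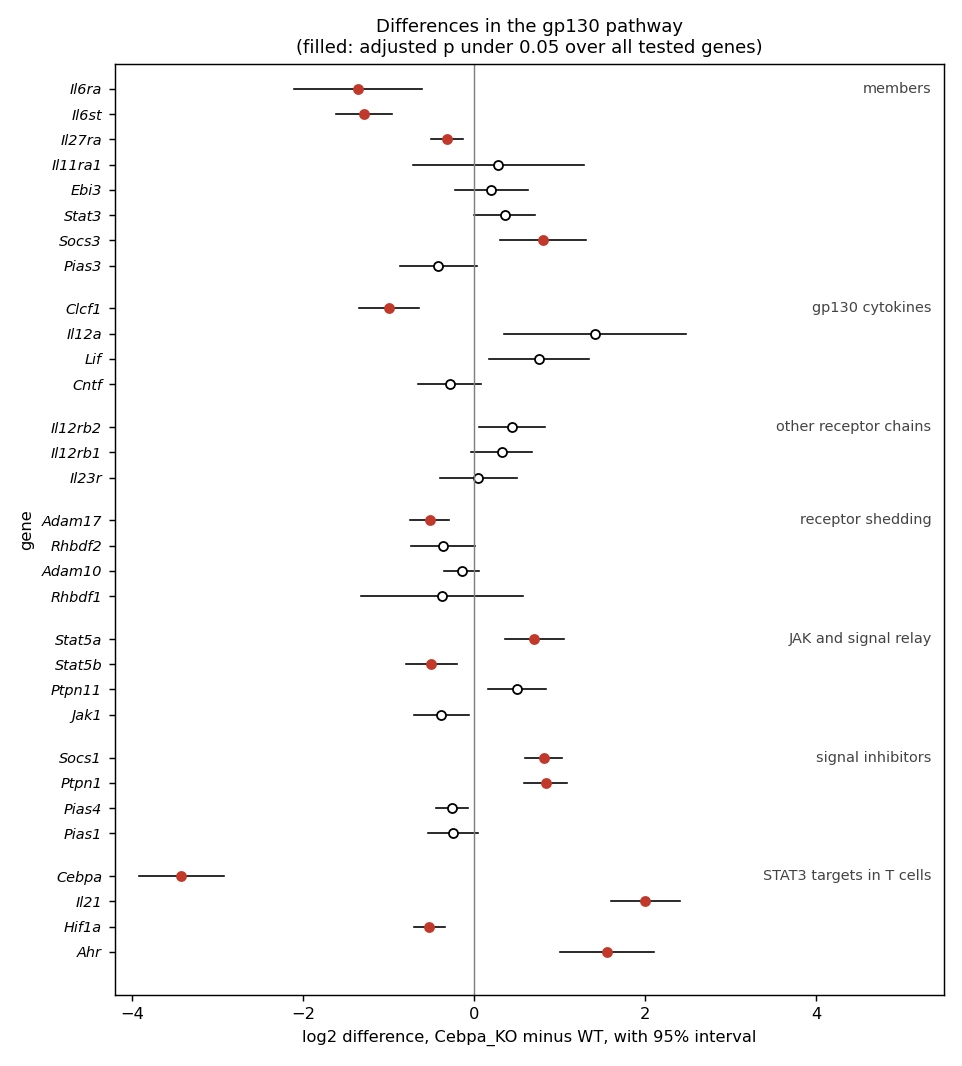
Log2 difference of Cebpa_KO minus WT with its 95% interval for the 8 tested members and for up to 4 genes with the smallest p of each pathway list, filled where the adjusted p over all tested genes is under 0.05. Il6ra, Il6st, Clcf1 and Adam17 lie left of 0, while Socs3, Socs1, Ptpn1 and Il21 lie right of it.

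The genes whose levels over the 5 libraries ran closest to Il6st were Nod1, an intracellular sensor of bacterial cell wall fragments, then Prrt2, Ipcef1, Rundc3a and the microRNA gene Mir7115. Closeness was the Euclidean distance between centred log2(scaled TPM + 1) values among 9077 other genes, and these lay at 0.0897 to 0.137. Nod1 stood at 9.42 and 9.02 in Cebpa_KO and at 22.6, 28.8 and 23.2 in WT. Il6ra had no neighbour as close. The mitochondrial transfer RNA gene mt-Tq, Tmem191, the kinesin gene Kif21b, Ipcef1 and mt-Ti lay at 0.266 to 0.405 from it. Tmem191 stood at 31.5 and 33.2 in Cebpa_KO and at 67.7, 102 and 95.7 in WT. With 5 libraries in 2 groups, such closeness is a description.

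**Figure D4:**
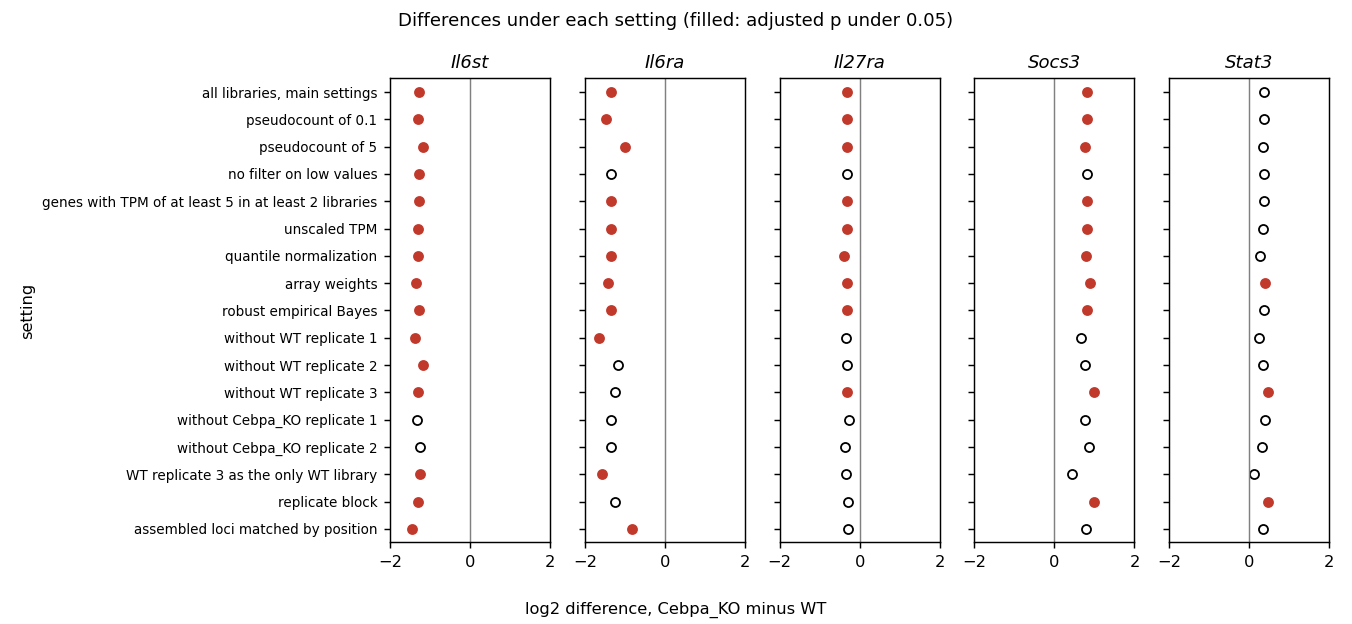
Log2 difference of Cebpa_KO minus WT for Il6st, Il6ra, Il27ra, Socs3 and Stat3 under each setting, filled where the adjusted p is under 0.05. The direction of each gene is the same in every setting shown, while the filled points of Il6ra, Il27ra and Socs3 are lost in several. No point is filled where either Cebpa_KO library is left out, but that group then has no spread of its own and the fit cannot decide a call.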

How the data were processed

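RNA of 2 Cebpa_KO and 3 WT pools of sorted Tfr cells was sequenced from low-input full-length cDNA, per the labels' protocols. Per the submitters' processing notes, build mm39, the aligner STAR 2.7.11b and the assembler StringTie 2.1.3b were used. Annotation release and strandedness were not given in the sources used here.

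The TPM values deposited by the authors were treated as a score, since each file holds annotated genes and assembled loci side by side. Annotated gene rows were used. The FPKM and the coverage signal deposited by the authors gave only the depth. Count models were not used, as the tables hold no read numbers.

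TPM was summed per gene ID and divided by the median ratio to the geometric mean over genes that reached a TPM of 1 in every library. Fits used limma 3.58.1 (R 4.3.3), its trend option and a pseudocount of 1, which understates changes of low genes. The fit was also run on simulated data with independent noise in each gene. Those data held no outlying library and no difference of sex, so that run cannot speak to either. Nothing says the pools are independent beyond their labels, so the spread behind each p-value is that between pools and may be technical. Members, lists and tests were chosen with earlier results of these data known. Named genes were the members, up to 4 genes per list with the smallest p, and the 5 nearest genes of Il6st and Il6ra with a mean of at least 5. Genes named outside that rule, among them Il27, Il6, Osm, Myc, Bcl3, Bcl6, Cebpd and the marker genes, were chosen after their values were seen. The 16 alternatives changed the pseudocount (0.1 and 5), filter, scaling, weights, estimation, block or libraries. Assembled loci, which carry no gene name, were matched by position and strand after seeing the data.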

Additional observations from a re-analysis of the deposited data

How the results depend on the processing

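Il6st kept its direction in all 16 alternatives and passed in 14, those without a Cebpa_KO library being the exceptions. Il6ra passed in 10, Socs3 in 9 and Il27ra in 8, with no change of sign. Stat3 passed in 3. Leaving out 1 library each gave 5 to 2177 genes higher and 18 to 1825 lower, 0 to 2 members higher and 0 to 2 lower, and 0 to 12 pathway genes higher and 0 to 8 lower. Where a group then had 1 library, it was assumed to vary like the other group. With no filter on low values, 930 genes were higher and 629 lower among 38302 tested, with 0 members higher and 1 lower and 4 pathway genes higher. Array weights gave 2575 and 2440 genes, 2 members higher and 14 pathway genes higher. Against WT replicate 3 alone, 1014 genes were higher and 647 lower, with 0 members higher and 4 pathway genes higher and 3 lower. In the assembled loci 0 members were higher, and the log2 difference of the Il6ra to Il6st ratio was 0.61. The cause of these shifts was not tested.

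The replicate block, to which WT replicate 3 adds nothing, gave 1050 genes lower and 2 members higher, Socs3 and Stat3, with 1 lower, Il6st. Whether the replicate numbers pair the libraries is not known. Same-numbered libraries had deviations from their group means correlated at -0.18 and 0.27. The deviations of the 2 Cebpa_KO libraries mirror each other, so these values cannot decide it. Il23r ran between -0.033 and 0.16 with 1 library left out, below 0 without Cebpa_KO replicate 2 or WT replicate 1 (-0.014), and was -0.17 against WT replicate 3 alone, while Il11ra1 turned to -2.80 and Il12rb2 to -0.012 in the assembled loci. None of these passed. Depth in reads is unknown, so no detection limit is given for genes near 0.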
